A study of Medicago sativa with 9 samples.

Results

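Core and linker histone genes were followed in alfalfa (Medicago sativa), a forage legume, in leaves sampled 0, 12 and 48 h into a treatment with selenium as Se(IV) at 100 mg/kg. A gene was taken as a histone gene where its deposited description names histone H1, H2A, H2B, H3 or H4 and no modifying enzyme, chaperone or kinase. Of 164632 genes listed, 318 met this description. A level of at least 1 FPKM (fragments per kilobase of gene, scaled to library size) in 3 or more of the 9 libraries was also required, which left 124 members. They comprised 17 of 34 H1 genes, 41 of 78 H2A genes, 52 of 75 H2B genes, 14 of 116 H3 genes, 0 of 10 H4 genes and 0 of 5 core histone genes of no named class. Of the 194 genes left out, 80 had no count in any library and 114 had counts below the minimum. Just inside the minimum, judged by the third-highest FPKM of a gene, lay MS.gene61107 (H2A.1, 1.03) and MS.gene015940 (H2B.1-like, 1.08). Just outside it lay the H2A.1 genes MS.gene058844 (0.93) and MS.gene004068 (0.855).

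Poly(A) RNA was sequenced from 3 libraries at 0 h, 3 at 12 h and 3 at 48 h. All were treated alike, so 0 h is the start of treatment, and treatment and time of sampling cannot be told apart in this design. The labels do not say whether replicates are separate plants, so a p-value here measures how far these libraries scatter, which may be technical. In whole leaves, fewer cells of a type and less RNA per cell cannot be told apart.

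Histones package DNA into nucleosomes, in which the DNA is wound around a core of H2A, H2B, H3 and H4, and the linker histone H1 binds where the DNA enters and leaves this core. Most canonical core histones are made while DNA is being replicated, and in plants their messages carry a poly(A) tail. Variants such as H2A.Z and H3.3 can be placed outside replication, by chaperones and remodelling complexes.

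Each library held 39936347 to 56137145 counts, and the histone members took 521 to 1400.2 CPM (counts scaled to library size). The scaling factors of TMM (trimmed mean of M values) were 0.856 to 0.988 at 0 h, 1.2 to 1.27 at 12 h and 0.835 to 0.933 at 48 h. Scaled to library totals alone, the median log2 change of all genes tested would be 0.39 for 12 h over 0 h, -0.14 for 48 h over 0 h and -0.54 for 48 h over 12 h. FPKM levels carry this shift, while log2 changes given with a standard error (SE) are TMM-scaled and do not. Markers of leaf mesophyll (light-harvesting and Rubisco small subunit genes) summed to 92845 to 169831 FPKM in all 9 libraries, and all 43 leghemoglobin genes, which mark root nodules, had no count.

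Some libraries of a time were more alike than others. In 2838 groups of genes with the same description on the same numbered chromosome, a median of 9.4% to 9.63% of reads lay on other copies between libraries of 12 h, and 10.6% between 48 h replicates 1 and 3. It was 21% to 24.1% between libraries of 0 h, 22.7% to 23.6% between 48 h replicate 2 and each of replicates 1 and 3, and 20.3% to 23.9% between libraries of different times. With the 12 h libraries summed into 1 sample, and likewise 48 h replicates 1 and 3, edgeR called 0 genes of any kind in the 3 comparisons. Unadjusted p values under 0.05 then numbered 3776 (12 h over 0 h), 3870 (48 h over 0 h) and 4458 (48 h over 12 h) among all genes, and no other tool was run on these sums. The calls given next treat all 9 libraries as separate samples.

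Few histone genes changed beyond the spread between libraries. For 12 h over 0 h, 0 of 124 members passed an adjusted p of 0.05 in edgeR's quasi-likelihood test, where 5.88% of the 50878 genes tested did (1.58% higher and 4.29% lower). At an unadjusted p under 0.05 there were 12 members, 4 higher and 8 lower, against 21.7% of all genes. For 48 h over 0 h, 1 member was called higher and 1 lower, against 1.14% of all genes (0.647% higher and 0.497% lower), and 14 had an unadjusted p under 0.05, against 16.4%. For 48 h over 12 h, 5 were called higher and 3 lower, against 10.6% of all genes (6.96% higher and 3.61% lower), and 23 had an unadjusted p under 0.05, against 27.3%. The share of members called was thus below the background in the comparisons with 12 h and near it for 48 h over 0 h. With scaling to library totals alone, calls for 48 h over 12 h were 2 higher and 8 lower (all genes 4.7% and 8.38%), so most calls were lower with this scaling and higher with TMM. The comparisons share libraries, so their calls are not independent of each other.

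DESeq2 and limma called more histone genes, and more of all genes, than edgeR. For 12 h over 0 h, DESeq2 called 1 member higher and 8 lower (17.9% of all genes in either direction), while limma on log2(FPKM + 1) called 6 higher and 2 lower (16.2% of all genes). DESeq2 called 6 higher and 3 lower for 48 h over 0 h (11% of all genes) and limma 2 higher and 2 lower (4.0%). In the comparison of 48 h over 12 h, DESeq2 called 9 higher and 11 lower, against 24.4% of all genes (13.9% higher and 10.5% lower), and limma 7 higher and 14 lower, against 25.2% (7.34% higher and 17.9% lower).

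The median log2 change of the members was 0.10 for 12 h over 0 h, 0.20 for 48 h over 0 h and 0.13 for 48 h over 12 h, where the medians of all genes tested were -0.01, -0.05 and -0.05. Setting the 2 members that had no count at 48 h at their bound could not move these medians, since both lie below them either way. By class, the median for 48 h over 12 h was 0.00 in H1, 0.20 in H2A, 0.11 in H2B and 0.44 in H3. The TMM-scaled values of the 3 libraries did not overlap in 16 members higher and 14 lower for 12 h over 0 h, where 36.8% of all genes did so (19.0% higher and 17.8% lower). They did not overlap in 15 higher and 7 lower for 48 h over 0 h, against 23.0% of all genes (11.2% and 11.8%), and in 21 higher and 18 lower for 48 h over 12 h, against 44.5% (20.8% and 23.7%).

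The count of calls rested on single libraries, among the histones as among all genes. Without 48 h replicate 2 it was 1 for 12 h over 0 h (8.73% of all genes), 5 for 48 h over 0 h (5.37%) and 15 for 48 h over 12 h. These 15 were 3 higher and 12 lower, against 14.4% of all genes (7.93% higher and 6.49% lower). The count for 48 h over 12 h was 1 without 12 h replicate 1, 1 without 12 h replicate 2 and 2 without 12 h replicate 3, where 3.45% to 5.33% of all genes were called. It was 3 without 48 h replicate 1 (4.82% of all genes), 3 without 48 h replicate 3 (5.59%) and 5 without 0 h replicate 1 (10.7%). The count for 48 h over 0 h was 1 without 0 h replicate 3 (0.444% of all genes) and 1 without 12 h replicate 3 (0.527%). It was 0 without 0 h replicate 1 or 2, 12 h replicate 1 or 2, or 48 h replicate 1 or 3, where 0.00786% to 0.969% of all genes were called. For 12 h over 0 h it was 1 without 0 h replicate 3 (4.66% of all genes). The median for 48 h over 0 h was -0.23 without 48 h replicate 2, and that for 48 h over 12 h was -0.28.

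**Figure D1:**
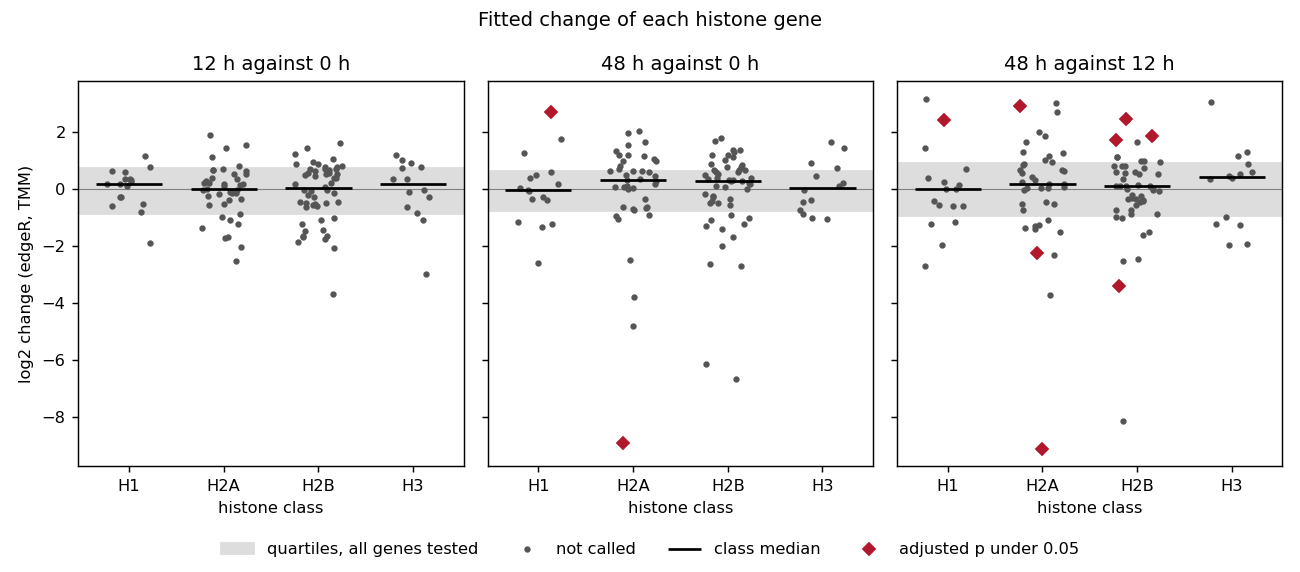
Fitted log2 change of each of the 124 histone genes by class in the 3 comparisons, with the class median as a black line and the quartiles of all genes tested as a grey band; diamonds mark an adjusted p under 0.05. Most genes lie near the grey band and called genes fall on both sides of 0. The lowest points for 48 h over 0 h belong to MS.gene066535, MS.gene015940 and MS.gene60876. These genes had no or at most 3 counts in any 48 h library, and their fitted values are not bounds. For 48 h over 12 h the lowest are MS.gene066535 and MS.gene015940, while an H2A.2 gene at -3.70 lies below MS.gene60876 at -2.45.

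All members together summed to 954, 1200.2 and 1474 FPKM at 0 h, 1762, 1431 and 2282 FPKM at 12 h, and 968, 2016 and 1343 FPKM at 48 h. The ranges of the 3 times overlap, and the 48 h libraries alone span 2.08-fold. The log2 ratio of the summed FPKM was 0.59 for 12 h over 0 h, 0.25 for 48 h over 0 h and -0.34 for 48 h over 12 h. On TMM-scaled CPM the same ratios were 0.18, 0.32 and 0.15, so the direction of 48 h over 12 h turned with the scaling. Without 48 h replicate 2, the FPKM ratio was -0.07 for 48 h over 0 h and -0.66 for 48 h over 12 h. The 48 h replicate 2 was the highest of its time in 71 of 124 members and 12 h replicate 3 in 76, and 0 h replicate 1 was the lowest of its time in 59.

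The class totals differed in how steady they were. H2A summed to 329, 349 and 396 FPKM at 0 h, 556, 490.3 and 557 FPKM at 12 h, and 273, 473 and 367 FPKM at 48 h. The highest library of a time stood 2.88-fold above the lowest for H1 at 0 h, 2.42-fold at 12 h and 3.28-fold at 48 h, where for H2A these values were 1.2, 1.14 and 1.73. They were 1.24, 1.58 and 1.43 for H2B, and 1.62, 1.35 and 4.57 for H3. H2B made up 31.1% to 45.2% of the summed histone FPKM of a library, H2A 23.5% to 34.5%, H1 17.8% to 33.5% and H3 5.87% to 12.9%. These shares cover the 124 members alone, since 24 further histone genes of high level have descriptions that name no class.

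**Figure D2:**
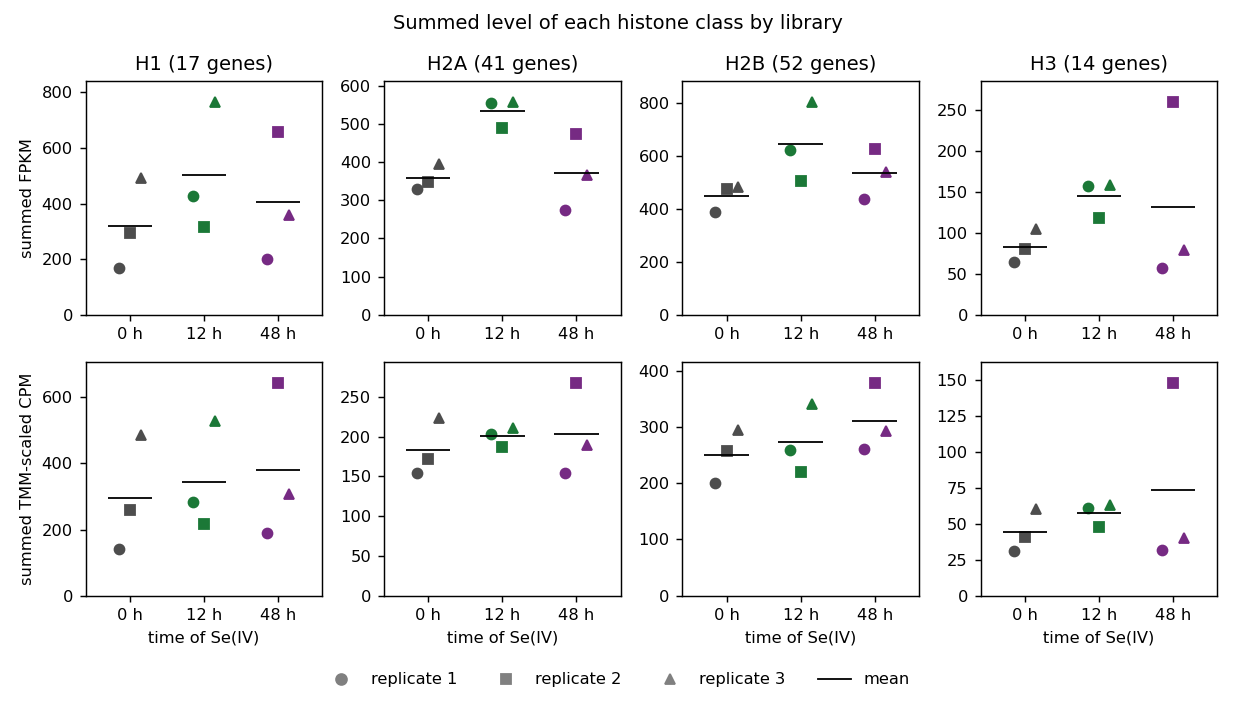
Summed level of each histone class in every library, as FPKM (upper panels) and as TMM-scaled CPM (lower panels), by hours of Se(IV); symbols give the replicate number and lines the mean of 3 libraries. The 12 h libraries of H2A, H2B and H3 stand above those of 0 h in FPKM, while their TMM-scaled ranges overlap, and 48 h replicate 2 is the highest 48 h library in each of the 4 classes.

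The linker histone H1 was carried by 10 genes on chromosome 1, 6 on chromosome 7 and 1 on an unplaced sequence. H1 summed to 170.2, 295 and 491 FPKM at 0 h, 426, 316 and 765 FPKM at 12 h, and 200.1, 657 and 358 FPKM at 48 h. The libraries of each time are spread so widely that all 3 ranges overlap. For the summed copies of chromosome 1, the log2 change was 0.25 ± 0.58 (SE) for 12 h over 0 h, 0.32 ± 0.58 for 48 h over 0 h and 0.06 ± 0.58 for 48 h over 12 h, with edgeR adjusted p values of 0.841, 0.839 and 0.956. For those of chromosome 7, the log2 change was -0.24 ± 0.59 (SE) for 12 h over 0 h, 0.61 ± 0.59 for 48 h over 0 h and 0.85 ± 0.60 for 48 h over 12 h, with edgeR adjusted p values of 0.85, 0.653 and 0.374.

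The H1 gene of highest mean level, MS.gene49334 (chromosome 1.1, 52891002 to 52891914), had 35.9, 56.4 and 75.4 FPKM at 0 h, 73, 53.9 and 159.9 FPKM at 12 h, and 63.2, 72.4 and 96.4 FPKM at 48 h. MS.gene49336, on the same chromosome copy (52917380 to 52918291), had 5.89, 26.7 and 50.3 FPKM at 0 h, 44.3, 32.9 and 119 FPKM at 12 h, and 12, 31.7 and 20.9 FPKM at 48 h. In both genes replicate 1 was the lowest library of 0 h and replicate 3 the highest of 12 h, as in the class total. MS.gene036144 (chromosome 1.3), named after its values were seen, had 20.8, 25.7 and 42.7 FPKM at 0 h, 9.58, 6.88 and 15.5 FPKM at 12 h, and 4.79, 192 and 7.65 FPKM at 48 h. Its level in 48 h replicate 2 stands far above the other 8 libraries.

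A single H1 gene, MS.gene018741 (chromosome 7.1, 11337664 to 11338413, minus strand), was called, as higher at 48 h. It had 22.3, 42.1 and 35.8 FPKM at 48 h, against 7.25, 4.05 and 4.96 FPKM at 0 h and 7.22, 5.76 and 12 FPKM at 12 h. All 3 libraries of 48 h lay above the 6 others. The log2 change was 2.70 ± 0.43 (SE) for 48 h over 0 h (edgeR adjusted p = 0.0366) and 2.45 ± 0.42 for 48 h over 12 h (edgeR adjusted p = 0.0123). The call against 0 h was lost on leaving out any 0 h library, 12 h replicate 1 or 2, or 48 h replicate 1 or 3, with edgeR adjusted p values of 0.0546 to 0.0913. The call against 12 h was lost without 12 h replicate 1 (edgeR adjusted p = 0.0572) or replicate 2 (0.0558). The next genes along the chromosome, MS.gene018742 and MS.gene018743, also encode H1 and were not called. MS.gene018742 had 11.2, 32.9 and 20.8 FPKM at 48 h, against 6.09, 15 and 22.7 FPKM at 0 h, and MS.gene018743 had 19.1, 40.5 and 39.4 FPKM at 48 h, against 4.7, 9.35 and 15.2 FPKM at 0 h. In MS.gene018743 all 48 h libraries thus lay above those of 0 h. Of the 6 H1 genes on chromosome 7, 2 had an unadjusted p under 0.05 in edgeR for 48 h over 0 h. Both were higher, where 16.4% of all genes had such a p in either direction.

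H2A was the most varied class, with 8 named kinds among its 41 members. Of the kinds numbered H2A.1, H2A.2, H2A.3 and H2A.6, 0 summed groups were called by edgeR in any comparison. H2A.6, with 4 genes on chromosome 2, summed to 77.4, 102 and 102 FPKM at 0 h, 97.2, 92.1 and 164 FPKM at 12 h, and 46.2, 171 and 82.1 FPKM at 48 h. Its 48 h libraries spanned 3.7-fold and enclosed all libraries of the other times. The H2A.6 log2 change was -0.12 ± 0.48 (SE) for 12 h over 0 h, 0.16 ± 0.48 for 48 h over 0 h and 0.28 ± 0.48 for 48 h over 12 h, with edgeR adjusted p values of 0.915, 0.908 and 0.731. Its strongest gene, MS.gene99799 (chromosome 2.3, 14901620 to 14902547), had 32.9, 14.4 and 69.3 FPKM at 0 h, 60.2, 42.1 and 78 FPKM at 12 h, and 32.1, 62.5 and 44.5 FPKM at 48 h.

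H2A.2, also 4 genes on chromosome 2, summed to 72.3, 54.4 and 101 FPKM at 0 h, 103, 85.5 and 68.9 FPKM at 12 h, and 75.7, 86.2 and 83.8 FPKM at 48 h, with overlapping ranges throughout. The H2A.2 log2 change was -0.28 ± 0.29 (SE) for 12 h over 0 h, 0.16 ± 0.29 for 48 h over 0 h and 0.44 ± 0.29 for 48 h over 12 h, with edgeR adjusted p values of 0.605, 0.832 and 0.334. MS.gene31169 (chromosome 2.4, 6824786 to 6825340) held the largest share of this group in all 9 libraries, 66% on average, with 40.8, 30.7 and 54 FPKM at 0 h, 64.5, 39.3 and 59.1 FPKM at 12 h, and 53.9, 75.1 and 62.5 FPKM at 48 h. MS.gene45478 (chromosome 2.1), named after its values were seen, had 19.2, 1.41 and 30.8 FPKM at 0 h, 27, 37.7 and 0 FPKM at 12 h, and 0, 3.47 and 0 FPKM at 48 h. Libraries of the same time thus differed in whether this copy was read at all.

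H2A.1 comprised 12 genes of low level on chromosome 4, with means of 0.739 to 3.99 FPKM. Together they had 15.5, 27.1 and 17.5 FPKM at 0 h, 31, 17.2 and 28.8 FPKM at 12 h, and 22.8, 50.3 and 29.2 FPKM at 48 h. The H2A.1 log2 change was -0.09 ± 0.40 (SE) for 12 h over 0 h, 0.84 ± 0.40 for 48 h over 0 h and 0.93 ± 0.40 for 48 h over 12 h, with edgeR adjusted p values of 0.922, 0.288 and 0.148. The strongest copy, MS.gene004072, had 2.54, 2.29 and 0.476 FPKM at 0 h, 3.35, 2.18 and 5.23 FPKM at 12 h, and 6.57, 5.02 and 8.28 FPKM at 48 h. A weaker copy was called: MS.gene41161 (chromosome 4.1, 36412774 to 36413226) had 1.49, 3.94 and 1.47 FPKM at 48 h, against 0.427, 0.299 and 0.528 FPKM at 12 h, and 1.14, 0.992 and 0.379 FPKM at 0 h. Its log2 change for 48 h over 12 h was 2.91 ± 0.74 (SE, edgeR adjusted p = 0.0438), from 34, 85 and 35 counts at 48 h and 11, 8 and 16 counts at 12 h. The gene reached the FPKM minimum in 1 library of 0 h, 0 of 12 h and 3 of 48 h. It could not have passed without 48 h, the time at which it was called higher, so nothing is read from its call. The call was lost on leaving out any library except 0 h replicate 3, with edgeR adjusted p values of 0.0513 to 0.153. H2A.3, a pair of genes on chromosome 4, summed to 0.778, 1.81 and 2.83 FPKM at 0 h, 4.23, 1.33 and 3.71 FPKM at 12 h, and 4.48, 2.01 and 3.99 FPKM at 48 h, with MS.gene23326 as the leading copy in 7 of 9 libraries.

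H2AX, the variant phosphorylated beside DNA breaks, was carried by 8 genes on chromosome 7. It summed to 79.9, 77.1 and 75.8 FPKM at 0 h, 116, 112 and 131 FPKM at 12 h, and 70.7, 87.8 and 107 FPKM at 48 h. On the TMM scale all 12 h libraries lay above those of 0 h by a narrow margin, with 45.9, 46.4 and 53.2 CPM at 12 h, against 39.2, 39.9 and 44.4 CPM at 0 h. The H2AX log2 change was 0.19 ± 0.18 (SE) for 12 h over 0 h, 0.25 ± 0.18 for 48 h over 0 h and 0.06 ± 0.18 for 48 h over 12 h, with edgeR adjusted p values of 0.571, 0.50 and 0.846. Its strongest gene, MS.gene066537 (chromosome 7.1, 2474400 to 2474979), had 24.5, 31.5 and 9.92 FPKM at 0 h, 48.1, 47.3 and 53.7 FPKM at 12 h, and 17.8, 30.9 and 28 FPKM at 48 h.

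A weaker H2AX copy on the same chromosome copy, MS.gene066535 (2487811 to 2488330), was called lower at 48 h. It had 0 counts in all 3 libraries of 48 h, against 74, 69 and 15 counts at 0 h and 86, 95 and 96 counts at 12 h. It passed the FPKM minimum only through libraries of 0 h and 12 h, the times against which it was called lower. Set against a floor of 3 counts per library it was at least 16.2-fold lower than at 0 h (edgeR adjusted p = 0.0373) and at least 18.8-fold lower than at 12 h (edgeR adjusted p = 0.00923). The call against 12 h was kept on leaving out each library in turn. Those fits kept the genes chosen with all 9 libraries, so they do not test how this gene became a member. With a replicate block, or with libraries of like copy usage summed, the call against 12 h was lost. The call against 0 h was lost without 0 h replicate 1 or 2, any 12 h library, or 48 h replicate 1 or 3, with edgeR adjusted p values of 0.0619 to 0.102. Other H2AX copies of the same length of 520 bases, named after their values were seen, were read at 48 h. MS.gene78324 (chromosome 7.4) had 1.63, 5.93 and 1.17 FPKM at 48 h, against 0.555, 1.6 and 4.22 FPKM at 0 h, and MS.gene29300 (chromosome 7.2) had 0.941, 0 and 5.74 FPKM at 48 h, against 0, 0 and 1.89 FPKM at 0 h. H2AXb, represented by MS.gene52703 alone, had 1.65, 7.5 and 1.96 FPKM at 0 h, 1.69, 0.605 and 1.21 FPKM at 12 h, and 0.126, 0 and 1.85 FPKM at 48 h, and was not called.

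H2A variants 1 and 3 are names used in Arabidopsis for members of the H2A.Z family, which a remodelling complex of the SWR1 type exchanges into nucleosomes near gene starts. Of 19 summed histone groups, H2A variant 3 alone passed in edgeR, and in a single comparison, as lower at 48 h than at 12 h. Its 6 genes on chromosome 1 summed to 48.7, 46.4 and 49.3 FPKM at 0 h, 134, 114 and 107 FPKM at 12 h, and 22, 46.1 and 21.4 FPKM at 48 h. On the TMM scale the totals were 15.4, 15 and 18.7 CPM at 0 h, 34.6, 30.6 and 28.6 CPM at 12 h, and 8.08, 17.7 and 7.19 CPM at 48 h. On both scales all 12 h libraries lay above the 6 others, and 48 h replicates 1 and 3 lay below all 0 h libraries.

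The log2 change of H2A variant 3 was -1.46 ± 0.35 for 48 h over 12 h (SE, edgeR adjusted p = 0.0264), in a comparison where 1 of 19 histone groups and 17.3% of all summed groups were called (10.1% higher and 7.15% lower), and 3 of 19 against 32.2% had an unadjusted p under 0.05. For 12 h over 0 h it was 0.89 ± 0.35 (edgeR adjusted p = 0.15), where 0 of 19 and 10.4% of all groups were called (3.57% higher and 6.87% lower), and 2 of 19 against 25.8% had an unadjusted p under 0.05. It was -0.57 ± 0.35 for 48 h over 0 h (edgeR adjusted p = 0.418), where 0 of 19 and 3.94% of all groups were called (2.06% higher and 1.88% lower), and 2 of 19 against 20.2% had an unadjusted p under 0.05. DESeq2 called 1 of 19 groups in each comparison, where 20.7% (12 h over 0 h), 13.9% (48 h over 0 h) and 28.4% (48 h over 12 h) of all summed groups were called. With limma, 4 of 19 were called for 12 h over 0 h (23.5% of all groups), 1 for 48 h over 0 h (7.21%) and 3 for 48 h over 12 h (34.3%).

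The call of variant 3 for 48 h over 12 h was kept in 12 of 19 other settings, and its log2 change lay between -2.07 and -1.23 in all 19. It was lost on leaving out any 12 h library or 48 h replicate 1 or 3, with edgeR adjusted p values of 0.0564 to 0.0912. It was also lost in the fit with a replicate block. The same held with the 12 h libraries summed into 1 sample, and likewise 48 h replicates 1 and 3. Without 48 h replicate 2, the highest 48 h library, the log2 change was -1.98 (edgeR adjusted p = 0.00198).

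The 6 copies of variant 3 moved alike. Each had its 3 TMM-scaled values of 12 h above those of 0 h and above those of 48 h, with log2 changes of 0.54 to 1.56 for 12 h over 0 h and of -2.23 to -1.24 for 48 h over 12 h. Of all genes, 19.0% were higher without overlap for 12 h over 0 h and 23.7% lower for 48 h over 12 h. An unadjusted p under 0.05 in edgeR was met by 1 of the 6 (21.7% of all genes) and 5 of the 6 (27.3%). Near-identical copies can share reads, so the 6 may not be independent of each other. MS.gene015965 (chromosome 1.2, 9378692 to 9378946), the copy of highest mean level, had 10.3, 10.2 and 11.7 FPKM at 0 h, 25.9, 23 and 19.3 FPKM at 12 h, and 5.33, 9.37 and 5.38 FPKM at 48 h. MS.gene015967, on the same chromosome copy (9371618 to 9371914), was called singly, with 3.22, 6.7 and 2.13 FPKM at 48 h, against 28.3, 23.6 and 27.8 FPKM at 12 h, and 4.05, 6.95 and 9.09 FPKM at 0 h. Its log2 change for 48 h over 12 h was -2.23 ± 0.58 (SE, edgeR adjusted p = 0.0478). That call was lost without 0 h replicate 2, any 12 h library, or 48 h replicate 1 or 3, with edgeR adjusted p values of 0.0602 to 0.143.

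**Figure D3:**
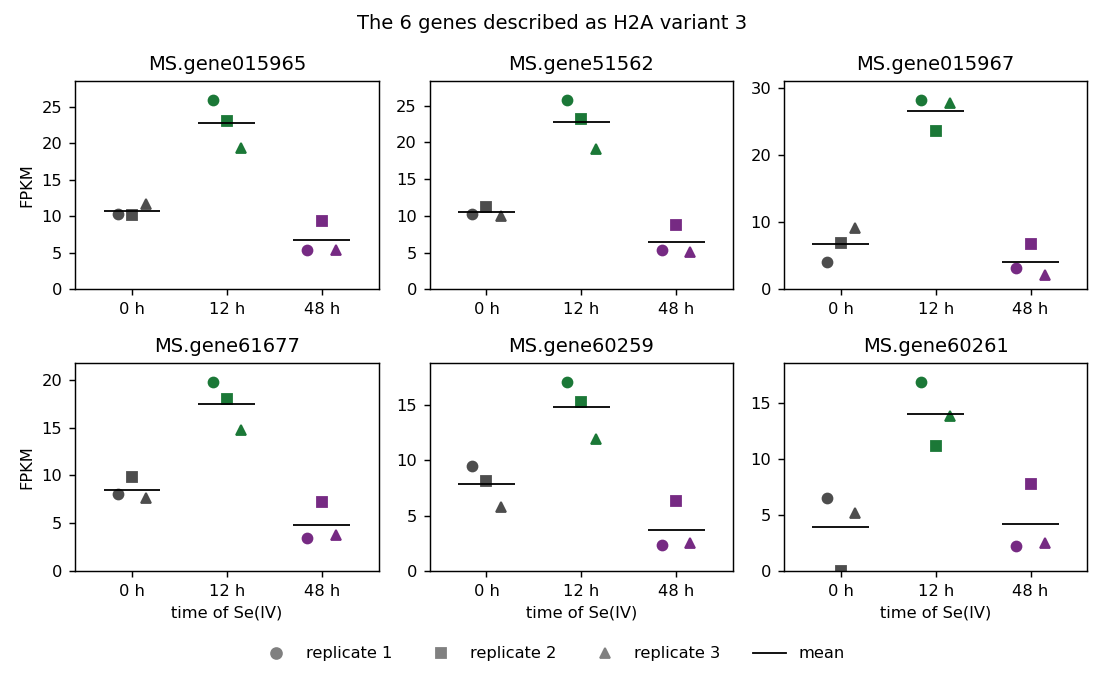
FPKM of the 6 genes described as H2A variant 3 in every library by hours of Se(IV), each panel on its own axis from 0; symbols give the replicate number and lines the mean of 3 libraries. In all 6 panels the 3 libraries of 12 h stand above the others, and 48 h replicate 2 is the highest of its time.

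H2A variant 1, with 4 genes on chromosome 1, summed to 33, 32.1 and 45.4 FPKM at 0 h, 68.9, 67.2 and 51.4 FPKM at 12 h, and 31.4, 29.8 and 38.2 FPKM at 48 h. On the TMM scale the 12 h libraries overlapped those of 0 h and lay above those of 48 h. The variant 1 log2 change was 0.31 ± 0.25 (SE) for 12 h over 0 h, -0.11 ± 0.25 for 48 h over 0 h and -0.41 ± 0.25 for 48 h over 12 h, with edgeR adjusted p values of 0.499, 0.88 and 0.296. Its strongest gene, MS.gene49359 (chromosome 1.1, 53363370 to 53364737), had 18.6, 16.4 and 39.4 FPKM at 0 h, 42.6, 23.5 and 24.5 FPKM at 12 h, and 9.71, 20.1 and 15.7 FPKM at 48 h. The difference between the changes of variants 1 and 3 was not tested.

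**Figure D4:**
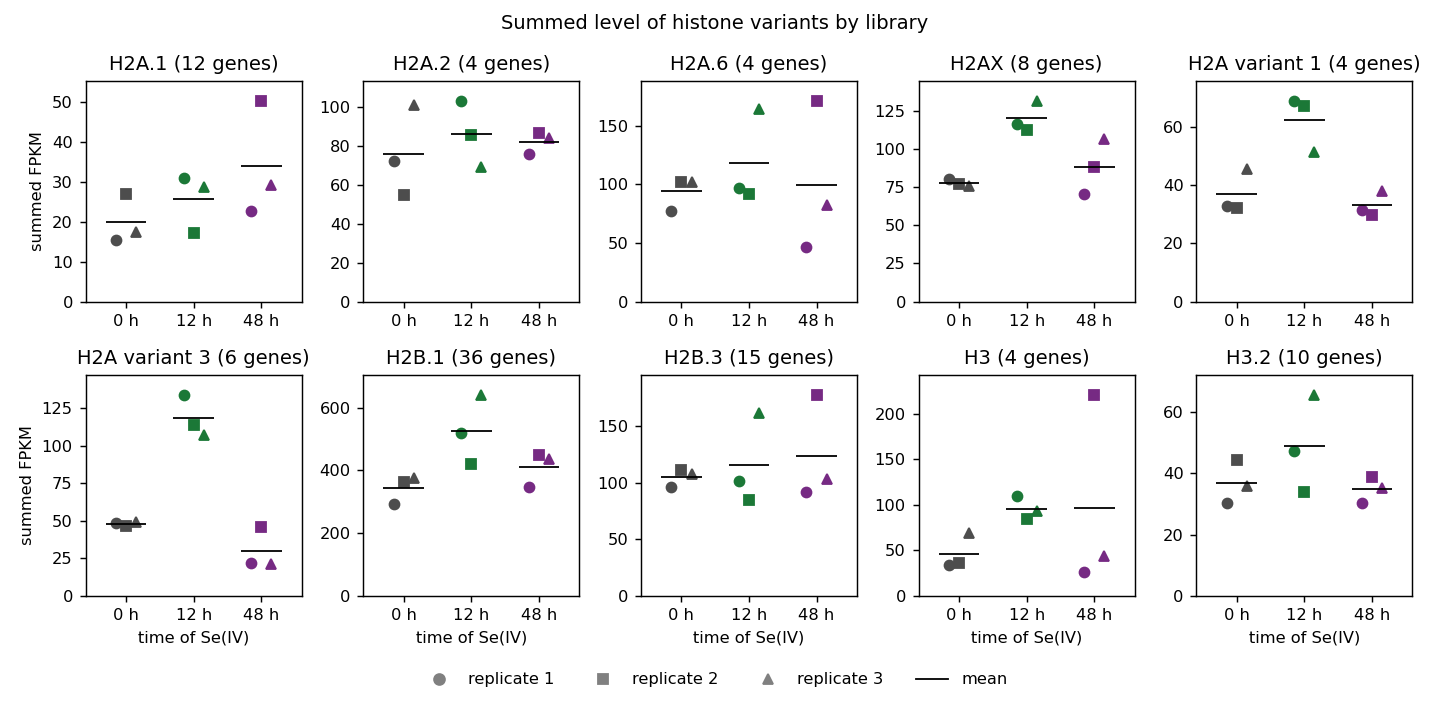
Summed FPKM of histone variants in every library by hours of Se(IV), each panel on its own axis from 0; symbols give the replicate number and lines the mean of 3 libraries. In H2A variant 3 the libraries of 12 h, at 106.9 to 133.8 FPKM, stand clear of the 6 others, while H2A.6 and H3 are spread most at 48 h.

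H2B was the class with the most members, and 36 of its 52 genes were H2B.1 genes on chromosome 4. H2B.1 summed to 294, 364 and 375 FPKM at 0 h, 519.5, 421 and 639.9 FPKM at 12 h, and 346, 449 and 436 FPKM at 48 h. On the TMM scale the ranges of the 3 times overlap. The H2B.1 log2 change was 0.17 ± 0.23 (SE) for 12 h over 0 h, 0.31 ± 0.23 for 48 h over 0 h and 0.15 ± 0.23 for 48 h over 12 h, with edgeR adjusted p values of 0.715, 0.51 and 0.705.

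Single H2B.1 copies moved apart from this sum, with log2 changes of -3.39 to 2.46 for 48 h over 12 h, 21 above 0 and 15 below. MS.gene23266 (chromosome 4.2, 36691262 to 36691708) was called higher, with 3.59, 7.19 and 4.38 FPKM at 48 h, against 1.25, 1.45 and 1.04 FPKM at 12 h, and 3.78, 3.23 and 3.43 FPKM at 0 h. Its log2 change was 2.46 ± 0.49 (SE, edgeR adjusted p = 0.0204). The same gene had the smallest adjusted p of all members for 12 h over 0 h, at -1.85 ± 0.48 (SE, edgeR adjusted p = 0.0666). MS.gene50082, on the same chromosome copy (36664207 to 36664653), was also called higher, with 2.74, 5.09 and 3.28 FPKM at 48 h, against 1.61, 1.42 and 1.12 FPKM at 12 h, and 3.88, 3.01 and 3.36 FPKM at 0 h. Its log2 change was 1.87 ± 0.49 (SE, edgeR adjusted p = 0.0482).

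MS.gene61105 (chromosome 4.4, 42542696 to 42543142) was called higher for 48 h over 12 h, by 1.72 ± 0.42 (SE, edgeR adjusted p = 0.0396). It had 16.8, 12.4 and 14.4 FPKM at 48 h, against 5.88, 3.85 and 8.34 FPKM at 12 h, and 11.2, 14.5 and 6.84 FPKM at 0 h. MS.gene021078 (chromosome 4.3, 40366774 to 40367220) was called lower, with 0.148, 0.279 and 0.162 FPKM at 48 h, against 3.98, 2.44 and 2.94 FPKM at 12 h, a log2 change of -3.39 ± 0.75 (SE, edgeR adjusted p = 0.0275). This gene reached the FPKM minimum in 2 libraries of 0 h, 3 of 12 h and 0 of 48 h. It could not have passed without 12 h, the time against which it was called lower, so nothing is read from its call. In each of these 4 genes the 48 h and 12 h libraries did not overlap. All 4 calls were lost on leaving out any 12 h library, with edgeR adjusted p values of 0.0557 to 0.142. Those of MS.gene021078, MS.gene61105 and MS.gene50082 were also lost without 48 h replicate 1 or 3, that of MS.gene61105 without 0 h replicate 1, and that of MS.gene50082 on leaving out any of the 9 libraries.

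The 2 H2B.1 genes of highest mean level were not called. MS.gene021181 (chromosome 4.1, 35873091 to 35873537) had 48.4, 17.9 and 42.3 FPKM at 0 h, 84.8, 66.3 and 85.3 FPKM at 12 h, and 65.3, 19.2 and 84.8 FPKM at 48 h. MS.gene003978 (chromosome 4.3, 39054884 to 39055330) had 24, 47.8 and 70.6 FPKM at 0 h, 50.2, 31.1 and 46.2 FPKM at 12 h, and 37, 64 and 39.9 FPKM at 48 h. In 0 h replicate 2 and 48 h replicate 2, MS.gene021181 was the lowest of its time while MS.gene003978 was not.

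H2B.3 had 15 members, 10 on chromosome 1, 4 on chromosome 7 and 1 on an unplaced sequence, and summed to 96, 111 and 108 FPKM at 0 h, 101, 84.6 and 161 FPKM at 12 h, and 91.7, 177 and 103 FPKM at 48 h. For the copies of chromosome 1, the log2 change was -0.46 ± 0.36 (SE) for 12 h over 0 h, 0.26 ± 0.36 for 48 h over 0 h and 0.72 ± 0.36 for 48 h over 12 h, with edgeR adjusted p values of 0.488, 0.771 and 0.215. For those of chromosome 7, the log2 change was 0.49 ± 0.35 (SE) for 12 h over 0 h, 0.86 ± 0.35 for 48 h over 0 h and 0.37 ± 0.35 for 48 h over 12 h, with edgeR adjusted p values of 0.427, 0.215 and 0.519. The strongest gene, MS.gene058976 (chromosome 1.2, 51443993 to 51444403), had 38.9, 25 and 28.4 FPKM at 0 h, 24.2, 18.7 and 40.3 FPKM at 12 h, and 27.4, 51.5 and 27.2 FPKM at 48 h.

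MS.gene60876, the H2B.3 gene on the unplaced sequence, named after its values were seen, had 53, 80 and 89 counts at 0 h, 2, 17 and 9 counts at 12 h, and 0, 0 and 3 counts at 48 h. All 0 h libraries lay above the 6 others. It is 1 of 2 members that passed the FPKM minimum through the libraries of a single time, here 0 h, so it had to be highest there. Its edgeR adjusted p was 0.139 for 12 h over 0 h and 0.0962 for 48 h over 0 h, while DESeq2 and limma called it lower in both when it was tested among the summed groups. For the same reason, nothing is read from these calls. The H2B.1-like gene MS.gene015940 had 0, 31 and 0 counts at 0 h, 49, 49 and 40 at 12 h, and 0, 0 and 0 at 48 h, and was not called by edgeR.

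H3 entered with 14 members in 2 sets. The 4 genes on chromosome 4 described after H3 of Zea mays summed to 34.2, 36.1 and 68.8 FPKM at 0 h, 110.2, 84.1 and 93.5 FPKM at 12 h, and 26.4, 221 and 43.9 FPKM at 48 h. The 48 h libraries spanned 8.35-fold, and replicate 2 lay above the 8 other libraries while replicate 1 lay below them. The H3 log2 change was 0.57 ± 0.75 (SE) for 12 h over 0 h, 1.14 ± 0.75 for 48 h over 0 h and 0.56 ± 0.74 for 48 h over 12 h, with edgeR adjusted p values of 0.698, 0.465 and 0.656. The main gene, MS.gene06070 (chromosome 4.1, 4622146 to 4622556), had 12.8, 16.1 and 34.1 FPKM at 0 h, 73.4, 49 and 53.7 FPKM at 12 h, and 11.7, 133 and 20.5 FPKM at 48 h. MS.gene55797 (chromosome 4.3, 4595097 to 4595507) had 16.5, 16.2 and 17.8 FPKM at 0 h, 33.1, 24.7 and 28.5 FPKM at 12 h, and 6.0, 62.1 and 10.2 FPKM at 48 h. Both show the same high 48 h replicate 2.

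The other 10 genes, described as H3.2, summed to 30.4, 44.3 and 35.9 FPKM at 0 h, 47.2, 33.8 and 65.6 FPKM at 12 h, and 30.4, 38.9 and 35.1 FPKM at 48 h, with overlapping ranges. Over the 3 comparisons the log2 changes of their sums were -0.19 to 0.21 on chromosome 4 and -0.14 to 0.09 on chromosome 8, and neither group was called. The strongest, MS.gene009155 (chromosome 8.1, 39945234 to 39945644), had 12, 8.77 and 13.4 FPKM at 0 h, 6.21, 5.76 and 9.22 FPKM at 12 h, and 9.3, 16.7 and 11.9 FPKM at 48 h. Its 12 h libraries overlap those of 0 h in FPKM and lie below them on the TMM scale, with a log2 change of -1.09 ± 0.41 (SE, edgeR adjusted p = 0.173). The 3 genes on chromosome 8 did not move alike for 12 h over 0 h. Their log2 changes were -1.09 to 1.21, 2 above 0 and 1 below, and 0 were called, against 5.88% of all genes. Genes described as H3.3, which replaces H3 outside replication, or as centromeric H3, and the 10 genes described as H4 did not reach the FPKM minimum.

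A further 24 tested genes described as Histone superfamily protein or histone 2b name no class and are not among the members. They summed to 1138, 1364 and 1582 FPKM at 0 h, 1506, 1348 and 2371 FPKM at 12 h, and 1035, 1554 and 1189 FPKM at 48 h, more than all members together in 5 of 9 libraries. Their descriptions do not tell which class each belongs to, and they may include H3 or H4 genes, so the levels of H3 and H4 given here hold only for genes described as such. Of the 24, 2 were called higher and 1 lower for 48 h over 12 h, a share near the 10.6% of all genes, and 0 in the other comparisons. An unadjusted p under 0.05 in edgeR, the tool run on the lists, was met by 5 for 12 h over 0 h (21.7% of all genes) and 6 for 48 h over 0 h (16.4%). Their median log2 change was -0.45 for 48 h over 12 h.

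Which copy carried a histone differed between libraries of the same time. For H2B.1, the share of reads that lay on other copies was 23.4% to 34.6% between libraries of 0 h, 10.3% to 14.7% between those of 12 h and 8.84% to 44.2% between those of 48 h. For H1 of chromosome 1 this share of reads reached 52.6% within 48 h. There MS.gene036144 held 41.1% of the group's FPKM in replicate 2, against 3.43% in replicate 1 and 3.02% in replicate 3. For H2A variant 3 the highest share of reads on other copies was 18.2% within 0 h, 9.12% within 12 h and 11.8% within 48 h. The H2B.1 gene MS.gene021181 was the leading copy in 6 of 9 libraries, while MS.gene003670 led in 0 h replicate 2 and 48 h replicate 2 and MS.gene003978 in 0 h replicate 3. The part of this copy usage in the changes of single copies was not tested.

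**Figure D5:**
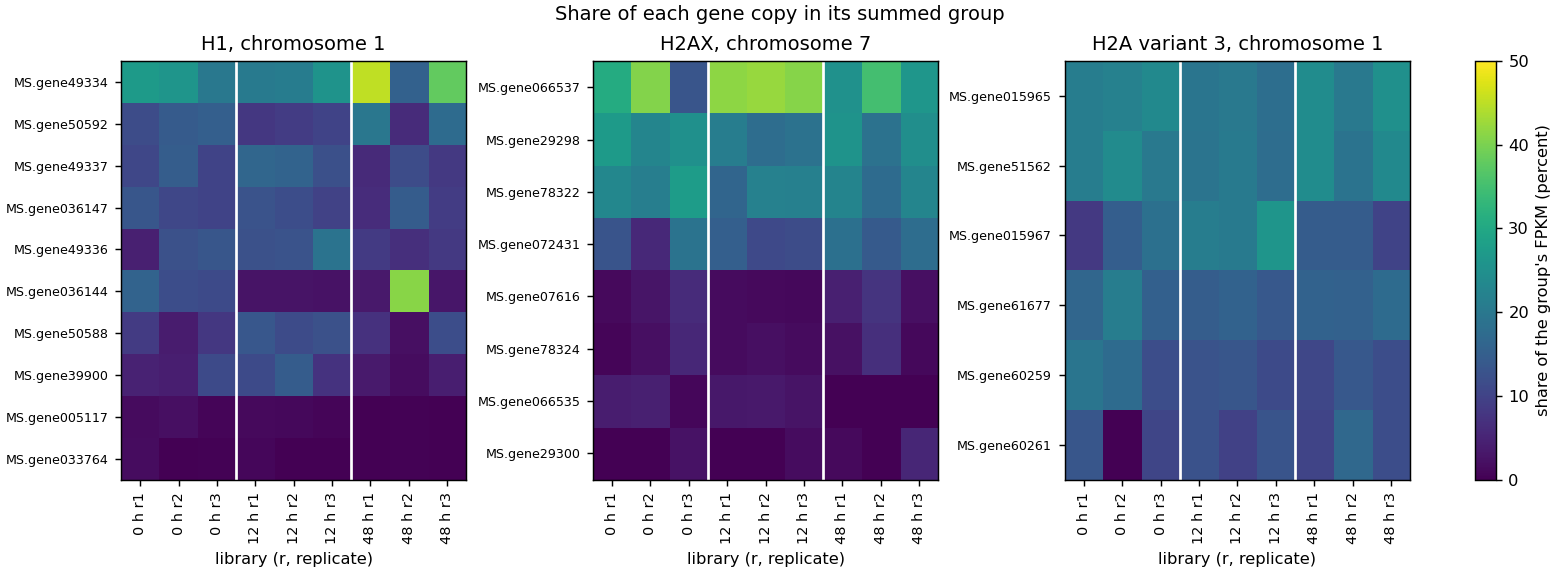
Share of the summed FPKM held by each gene copy, in percent by colour, in every library for H1 of chromosome 1, H2AX of chromosome 7 and H2A variant 3; white lines separate the times. In H1, MS.gene036144 holds 41.1% in 48 h replicate 2; in H2AX, MS.gene066537 holds 13.1% in 0 h replicate 3 and up to 42.2% elsewhere; in H2A variant 3 no copy exceeds 26%.

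The members were placed mainly on chromosome 4 (61 genes) and chromosome 1 (31), with 19 on chromosome 7, 8 on chromosome 2, 3 on chromosome 8 and 2 on unplaced sequences. Of the 122 on numbered chromosomes, 46 had another histone gene as the next gene on at least 1 side. These were 24 of 51 H2B genes, 17 of 41 H2A genes, 5 of 16 H1 genes and 0 of 14 H3 genes. Of 12 H2A.1 genes, 9 lay next to an H2B.1 gene, all on the same strand as it, and 7 of 8 H2AX genes lay next to another H2AX gene. Beside the called H2A.1 gene MS.gene41161, the H2B.1 gene MS.gene41162 had 1.74, 12.2 and 1.68 FPKM at 48 h, against 7.9, 6.64 and 5.82 FPKM at 12 h, and was not called. Of the GO terms deposited with the members, 76 genes carried nucleosome assembly and 41 chromatin silencing.

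Genes that handle histones were set beside the members, and their calls are read against the shares of all genes called, which were 5.88% for 12 h over 0 h, 1.14% for 48 h over 0 h and 10.6% for 48 h over 12 h. At an unadjusted p under 0.05 in edgeR, the shares of all genes were 21.7%, 16.4% and 27.3% in the same order, for this and the other lists below. Histone chaperones, which escort histones to DNA, had 0 of 43 called for 12 h over 0 h (7 at an unadjusted p under 0.05 in edgeR), 0 for 48 h over 0 h (5 at an unadjusted p under 0.05), and 0 higher and 3 lower for 48 h over 12 h. They summed to 139, 136 and 107 FPKM at 0 h, 272, 264 and 255 FPKM at 12 h, and 108, 115 and 146 FPKM at 48 h, and on the TMM scale too the 12 h libraries lay above the 6 others. Their median log2 change was 0.50 for 12 h over 0 h and -0.81 for 48 h over 12 h. MS.gene010426 (chromosome 5.4), described as NASP-related protein sim3, of a family of histone chaperones, had 0.981, 0.127 and 0.112 FPKM at 48 h, against 9.1, 7.88 and 5.65 FPKM at 12 h. Its log2 change was -3.72 ± 0.87 (SE, edgeR adjusted p = 0.0338), and that of its summed copies -2.58 ± 0.30.

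Histone-modifying enzymes had 6 of 199 called higher and 1 lower for 12 h over 0 h, 0 for 48 h over 0 h (21 at an unadjusted p under 0.05 in edgeR), and 3 higher and 9 lower for 48 h over 12 h. These are 3.52% of the list for 12 h over 0 h and 6.03% for 48 h over 12 h, below the shares of all genes. The histone deacetylase gene MS.gene03774 (HDT1, chromosome 4.3) had 0.69, 0.351 and 0.969 FPKM at 48 h, against 18.8, 20.5 and 16.4 FPKM at 12 h. Its log2 change was -4.33 ± 0.66 (SE, edgeR adjusted p = 0.00833), and that of its summed copies -4.43 ± 0.64. The demethylase gene MS.gene056338 (JMJ30, chromosome 4.1) had 4.0, 3.95 and 3.05 FPKM at 12 h and was listed at 0 in the libraries of 0 h and 48 h. It passed the FPKM minimum only through the 12 h libraries, where it is high, so nothing is read from its call.

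Chromatin remodellers had 3 of 114 called higher and 0 lower for 12 h over 0 h, 1 higher and 0 lower for 48 h over 0 h, and 2 higher and 3 lower for 48 h over 12 h. The ISWI ATPase gene MS.gene041515 (CHR17, chromosome 8.2) had 0.469, 0.48 and 0.873 FPKM at 48 h, against 3.73, 4.6 and 3.16 FPKM at 12 h, and its log2 change was -2.23 ± 0.36 (SE, edgeR adjusted p = 0.0104). MS.gene45594, described as of the CW-Zn family, had 0.538, 1.18 and 1.63 FPKM at 12 h and 1.15, 0.513 and 1.47 FPKM at 48 h and was listed at 0 in the 3 libraries of 0 h. It passed the FPKM minimum only through libraries of 12 h and 48 h, at which it was called higher, while its summed copies were not (edgeR adjusted p = 0.154 and 0.34).

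DNA replication genes had 0 of 81 called higher and 2 lower for 12 h over 0 h, 0 higher and 1 lower for 48 h over 0 h, and 3 higher and 4 lower for 48 h over 12 h. They summed to 229.6, 197 and 211 FPKM at 0 h, 349, 352 and 371 FPKM at 12 h, and 204, 170.4 and 218 FPKM at 48 h. Their TMM-scaled median log2 change was 0.35 for 12 h over 0 h (53 genes above 0 and 28 below), -0.11 for 48 h over 0 h and -0.47 for 48 h over 12 h. Within 48 h, replicate 2 had the most histone FPKM and the least replication FPKM, and within 0 h replicate 1 had the least histone FPKM and the most replication FPKM. Within 12 h, replicate 3 had the most of both. The replication protein A subunit gene MS.gene036891 (chromosome 8.1) had 0.719, 0.295 and 0.819 FPKM at 12 h, against 2.55, 2.84 and 2.27 FPKM at 0 h, a log2 change of -2.44 ± 0.49 (SE, edgeR adjusted p = 0.0282). The thymidine kinase gene MS.gene047290 was listed at 0 in the 3 libraries of 48 h, against 3.66, 0.745 and 0.643 FPKM at 0 h and 3.14, 4.16 and 8.79 FPKM at 12 h, and was called lower in both. It reached the FPKM minimum in 1 library of 0 h, 3 of 12 h and 0 of 48 h, so nothing is read from these calls.

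Mitosis genes had 1 of 56 called higher and 0 lower for 12 h over 0 h, 0 for 48 h over 0 h (6 at an unadjusted p under 0.05 in edgeR), and 0 higher and 2 lower for 48 h over 12 h. They summed to 153, 147 and 129 FPKM at 0 h, 169, 158 and 169 FPKM at 12 h, and 114, 128 and 117 FPKM at 48 h. The mitotic cyclin gene MS.gene001968 (S13-7) had 1.52, 1.46 and 1.4 FPKM at 12 h and was listed at 0 in the libraries of 0 h and 48 h. It is the gene called for 12 h over 0 h and 1 of the 2 called for 48 h over 12 h, and it passed the FPKM minimum only through the 12 h libraries, so nothing is read from these calls. The 37 measured markers of meristem and young leaf summed to 221 to 256 FPKM at 0 h, 254 to 322 FPKM at 12 h, and 211 to 232 FPKM at 48 h, with 0 called for 12 h over 0 h (5 unadjusted in edgeR), 0 for 48 h over 0 h (8 unadjusted), and 2 higher and 2 lower for 48 h over 12 h.

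Markers of other cell types were counted in the same way. Of 86 leaf mesophyll markers, 36 were called lower and 0 higher for 12 h over 0 h, 1 higher and 0 lower for 48 h over 0 h, and 49 higher and 0 lower for 48 h over 12 h. The 16 tested genes named after pollen summed to 272 to 475 FPKM at 0 h, 736 to 880.0 FPKM at 12 h, and 289 to 354 FPKM at 48 h, with 0 called higher and 3 lower for 12 h over 0 h, 0 for 48 h over 0 h (0 unadjusted in edgeR), and 3 higher and 1 lower for 48 h over 12 h. Their TMM-scaled median log2 change was -0.04 for 12 h over 0 h. The 11 named after seed storage proteins summed to 24.5 to 44.9 FPKM at 0 h, 77.1 to 113 FPKM at 12 h, and 196 to 274 FPKM at 48 h, with 0 called for 12 h over 0 h (2 unadjusted in edgeR), 0 for 48 h over 0 h (5 unadjusted), and 1 higher and 2 lower for 48 h over 12 h. The 8 xylem markers summed to 4.9 to 19.8 FPKM at 0 h, 3.33 to 5.31 FPKM at 12 h, and 6.71 to 14.9 FPKM at 48 h, with 1 called lower for 12 h over 0 h, 0 for 48 h over 0 h (0 unadjusted in edgeR), and 1 higher for 48 h over 12 h. The 4 stomatal lineage markers summed to 4.31 to 5.08 FPKM at 0 h, 4.33 to 7.73 FPKM at 12 h, and 2.05 to 3.43 FPKM at 48 h, with 0 called in any comparison (0, 0 and 1 unadjusted in edgeR). These sums are FPKM and carry the scaling shift described above. Their part in the level of H2A variant 3 or of any other histone was not tested.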

How the data were processed

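The deposited table holds whole-number read counts per gene, not normalized, beside FPKM values computed by the authors, per the file headers. FPKM is listed as 1e-04 where the count is 0 and was read as 0. HISAT and StringTie are named in the submitters' processing notes, without version or role. Genome build, annotation, strand setting and the treatment of reads shared by near-identical copies: not given in the sources used here, which leaves values of single copies uncertain. Coordinates, chromosome copies and descriptions are as listed in the table.

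The 50878 genes with 1 FPKM or more in at least 3 of 9 libraries were tested on the deposited counts with edgeR (version 4.0.16, R 4.3.3). The quasi-likelihood fit used TMM scaling, 1 mean per time and all 9 libraries, with Benjamini-Hochberg adjustment over all genes at 0.05. The common coefficient of variation was 0.843. For summed copies, the counts of genes with the same description on the same numbered chromosome were added, leaving out descriptions that name no function (24586 groups, coefficient 0.684). DESeq2 1.42.0 and limma 3.58.1 on log2(FPKM + 1) and log2(FPKM + 0.1) were alternatives, beside other scalings, filters and sets of libraries. The edgeR fit was also run on simulated counts of independent libraries. Their spread was below that of these data, so the run does not measure the error of the calls given here. A gene with no count at a time is given as a bound against 3 counts per library, 0.0534 to 0.0751 CPM, which covers counting error only.

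The members and the lists of other genes were chosen with earlier results of these data known. Lists are patterns on the description, with source species removed. Named genes are the 2 of highest mean FPKM per class, all called members, the strongest gene of each variant and, in each other list, the called gene of smallest adjusted p, of which those of the marker lists and of the unclassed histones are left out of the text. Neighbours of called genes and leading copies are named besides, after their values were seen. The called genes MS.gene010426, MS.gene03774 and MS.gene041515 passed the FPKM minimum only through libraries of 0 h and 12 h. MS.gene036891 passed it only through those of 0 h and 48 h. Of the 124 member IDs, 0 were found in the RefSeq gene table, so no sequences are shown.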

Additional observations from a re-analysis of the deposited data

How the results depend on the processing

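The number of histone genes called depended on the test, as did the share of all genes called. For 12 h over 0 h it was 0, but 9 with DESeq2, 8 with limma on log2(FPKM + 1) and 5 with limma on log2(FPKM + 0.1). Of all genes, 17.9%, 16.2% and 11.5% were called in these settings, against 5.88%. For 48 h over 0 h it was 2, but 9 with DESeq2, 4 and 4 with the limma settings, 1 with an FPKM of at least 5, and 0 with no filter or with only the 2 times in the fit. Of all genes, 11%, 4.0% and 2.96% were called with DESeq2 and limma, against 1.14%. With an FPKM of at least 5 it was 694 of 24425, with no filter 158 of 101008, and with only the 2 times 0 of 50878. For 48 h over 12 h it was 8, but 20 with DESeq2, 21 and 19 with limma, 12 with only the 2 times in the fit and 2 with no filter. Of all genes, 24.4%, 25.2% and 20.9% were called with DESeq2 and limma, against 10.6%. With only the 2 times it was 7314 of 50878, and with no filter 3332 of 101008. Leaving out single libraries gave 0 to 1, 0 to 5 and 1 to 15 calls in the 3 comparisons, where 1.7% to 8.73%, 0.00786% to 5.37% and 3.45% to 14.4% of all genes were called. For 12 h over 0 h, summed copies called were 1 with DESeq2, 1 with library totals, 1 with only the 2 times in the fit and 4 and 4 with limma. Of all 24586 groups, these settings called 5099, 3595, 2528, 5770 and 4750. For 48 h over 0 h it was 1 with DESeq2 and 1 and 1 with limma, against 3413, 1773 and 1583 of all groups. For 48 h over 12 h it was 2 with library totals, 2 with only the 2 times and 3 and 3 with limma, against 6222, 5086, 8434 and 7588. Leaving out single libraries gave 0 to 1 (987 to 3448 of all groups), 0 to 1 (175 to 2457) and 0 to 2 (2004 to 5203). The fit with a replicate block called 0 histone genes and 0 histone groups in every comparison. Of all genes it called 817 (12 h over 0 h), 0 (48 h over 0 h) and 1771 (48 h over 12 h), and of all summed groups 1266, 104 and 2464. However, samples of the same number deviated from their group means with correlations of only -0.03 to 0.02, so the numbers do not pair the libraries.

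The median log2 change of histone genes was 0.52 with library totals and 0.60 with limma on log2(FPKM + 0.1) for 12 h over 0 h, and -0.36 with library totals, -0.31 and -0.39 with limma for 48 h over 12 h. These settings move all genes too. Leaving out single libraries gave -0.07 to 0.25, -0.23 to 0.43 and -0.28 to 0.38. The log2 ratio of summed FPKM was 0.18 with TMM-scaled CPM for 12 h over 0 h, 0.15 with TMM-scaled and 0.14 with median-of-ratios CPM for 48 h over 12 h, and 0.40 to 0.76, -0.07 to 0.47 and -0.66 to -0.12 without single libraries. With the genes of no named class added, an alternative chosen after seeing the data, it was 0.47, 0.07 and -0.40. The cause of these differences was not tested. A count of 0 in a library allows up to 0.0534 to 0.0751 CPM, which limits what is said of genes with no count at a time.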
